A study of Mus musculus with 4 samples.

Results

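The regions described here lie near the distal ends of the mouse autosomes, the ends away from the centromere. They are the listed regions whose midpoint falls in the last 3 Mb of chromosomes 1 to 19 on mm10, a choice made by position alone. There are 888 of them among 39231 listed regions, against 37693 in the rest of the same chromosomes and 650 on chromosomes X and Y. Each region marks a place where captured DNA was more abundant in the oil library than in the tamoxifen library.

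The cells were satellite cells, the stem cells of skeletal muscle, taken from hindlimb muscles of mice aged 9 weeks and cultured for 3 days on Matrigel. In the tamoxifen group the mice had 5 daily injections of 150 µl tamoxifen at 20 mg/ml, given to activate Cre and delete Uhrf1. In the oil group the mice received oil. An MBD2 capture kit separated methylated from non-methylated DNA in both groups, which makes 4 libraries with 1 library in each group. The promoter that drives Cre, the alleles of the mice and the deleted interval of Uhrf1 are not given in the sources used here. Since the file header calls the alignments just oil and tamoxifen, that they hold the captured, methylated part is an assumption made here. The tamoxifen library held 25614791 tags after removal of repeats at a position, and the oil library 19534328, so the tamoxifen tags over a region count 0.763 when set on the oil scale. With 1 library per group no test of the treatment was possible, and the 95% limits below cover counting error only. Regions higher in the tamoxifen library were not analysed here.

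Uhrf1 encodes the protein that recognises hemimethylated DNA behind the replication fork and brings the methyltransferase Dnmt1 to it, so that methylation is copied to the new strand. Capture with MBD2 enriches DNA dense in methylated CpG, the dinucleotide that carries most methylation in mammals. Mouse chromosomes are telocentric: one end holds the centromere and its satellite repeats, and the other, distal end holds a telomere beside ordinary genes. Distal ends are often rich in genes, and among those of the mouse are an imprinted domain on chromosome 7, expressed by parental origin, and the Hoxc cluster on chromosome 15, whose transcription factors set position along the body axis.

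Few of the distal regions lay on a gene's start site. Of 1030 promoter windows in the last 3 Mb (250 bases before to 50 after a RefSeq start), 8 were overlapped by a region (0.777%, 95% limits 0.336 to 1.52), against 389 of 30366 in the rest (1.28%, limits 1.16 to 1.41), with 1.26% over both. RefSeq windows were found for 561 of the 704 protein-coding genes centred in the last 3 Mb. The overlapped windows held a median of 10.5 CpG in the last 3 Mb (8 windows, quartiles 8 and 12.5) and 9 in the rest (quartiles 6 and 12). Windows not overlapped held medians of 8 (quartiles 3 and 23) and 7 (quartiles 3 and 21), so their upper quartiles were higher. The 4 sequences that follow, from RefSeq on GRCm38.p6 (the mm10 build), are shown because they show the CpG under or next to a listed region. Each is written 5′ to 3′ on the gene's own strand with every CpG in capitals.
Prkcz, chr4:155344700-155344999, minus strand: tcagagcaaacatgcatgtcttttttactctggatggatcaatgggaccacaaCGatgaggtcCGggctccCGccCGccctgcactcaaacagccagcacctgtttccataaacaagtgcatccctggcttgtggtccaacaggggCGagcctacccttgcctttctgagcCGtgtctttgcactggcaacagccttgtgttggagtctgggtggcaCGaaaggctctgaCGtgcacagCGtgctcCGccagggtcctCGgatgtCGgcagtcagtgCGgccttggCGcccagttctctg
Krt75, chr15:101573855-101574154, minus strand: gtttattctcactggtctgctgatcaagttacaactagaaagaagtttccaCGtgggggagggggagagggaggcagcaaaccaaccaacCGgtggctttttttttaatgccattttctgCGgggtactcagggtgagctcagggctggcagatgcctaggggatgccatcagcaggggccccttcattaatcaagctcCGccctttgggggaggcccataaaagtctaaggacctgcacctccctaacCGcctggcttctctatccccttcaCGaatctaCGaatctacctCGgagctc
Gm30528, chr15:103060506-103060805, minus strand: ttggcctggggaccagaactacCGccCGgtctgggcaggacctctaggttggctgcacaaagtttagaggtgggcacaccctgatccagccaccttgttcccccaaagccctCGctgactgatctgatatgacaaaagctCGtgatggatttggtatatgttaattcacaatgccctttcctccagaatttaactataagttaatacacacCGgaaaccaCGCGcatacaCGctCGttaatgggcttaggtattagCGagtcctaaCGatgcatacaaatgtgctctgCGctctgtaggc
1810018F18Rik, chr19:58698667-58698966, plus strand: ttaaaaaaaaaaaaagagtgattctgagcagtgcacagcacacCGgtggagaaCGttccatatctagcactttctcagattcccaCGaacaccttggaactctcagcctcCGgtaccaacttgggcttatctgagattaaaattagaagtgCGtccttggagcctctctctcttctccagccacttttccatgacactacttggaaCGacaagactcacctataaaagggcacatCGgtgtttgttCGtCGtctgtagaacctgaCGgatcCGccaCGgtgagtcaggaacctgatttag
The Prkcz window holds 14 CpG, and the region over 89 of its bases (chr4:155344486-155344788) had 16 tamoxifen tags and 67 oil tags. Prkcz encodes atypical protein kinase C zeta, a kinase of the cell polarity machinery. The Krt75 window, of a hair follicle keratin, holds 8 CpG, and the region reached 35 of its bases with 8 tamoxifen tags and 41 oil tags. The windows of the lncRNAs Gm30528 and 1810018F18Rik hold 12 CpG each. At Gm30528 the region covered 196 bases with 6 tamoxifen tags and 42 oil tags. At 1810018F18Rik it covered all 300 bases, with 21 tamoxifen tags and 80 oil tags. In all 4 the tamoxifen library kept 10.9 to 20.0% of the oil tags after scaling. The other 4 overlapped windows spread more widely. They belong to the lncRNAs Gm13110 (9.24% kept), Gm52691 (13.8%), Gm51605 and LOC108167564 (26.6% each).

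Hairpins of microRNAs near the ends were reached about as often as elsewhere. Of 42 hairpins in the last 3 Mb, 8 had a region within 2000 bp (19.05%, limits 8.60 to 34.1), against 149 of 877 in the rest (17.0%, limits 14.6 to 19.6), with 17.1% over both. The mature sequences that follow, from RefSeq, belong to hairpins with a high fold (Mir6916 and Mir186), an imprinted host (Mir675) and the closest region (Mir7006). Seeds (bases 2 to 8) are in capitals, and no seed is shared among the 5.
mmu-miR-6916-5p: cAGGAGGAuggagaugaguca
mmu-miR-186-5p: cAAAGAAUucuccuuuugggcu
mmu-miR-675-5p: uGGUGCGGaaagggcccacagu
mmu-miR-675-3p: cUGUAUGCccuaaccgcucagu
mmu-miR-7006-3p: uUUCUGACcuggauccccag
The region 163 bp from Mir6916 on chromosome 10 had 2 or fewer tamoxifen tags and 25 oil tags. At Mir186, 836 bp from its region inside Zranb2 on chromosome 3, there were 6 tamoxifen tags and 41 oil tags. Mir675, which lies within the imprinted lncRNA H19, had its region 1096 bp away, with 20 tamoxifen tags and 55 oil tags. The region 44 bp from Mir7006 on chromosome 2 had more tags, 48 in the tamoxifen library and 171 in the oil library. Among the nearest regions of the 8 hairpins, that of Mir3084-2 on chromosome 19, not shown above, had the highest fold (8.52, with 13 tamoxifen tags and 92 oil tags). These hairpins are named for position only, since the libraries hold no RNA.

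As a whole the distal ends held as many regions per length as the rest of their chromosomes. The last 3 Mb of the 19 chromosomes add up to 57 Mb, or 2.31% of their length, and held 2.30% of their regions. Density was 15.6 regions per Mb (limits 14.6 to 16.6) in the last 3 Mb and 15.7 (limits 15.5 to 15.8) in the rest, a ratio of 0.994 (limits 0.929 to 1.06). The regions covered 0.453% of the last 3 Mb and 0.460% of the rest. The first 3 Mb of these chromosomes, at the centromere, held 0 listed regions. That part of the assembly is unsequenced.

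The even average hides large differences between ends, but 3 Mb windows elsewhere differed as widely. Regions per window had quartiles of 23 and 61.5 in the terminal windows and 22 and 66 in the 774 others. Density in the last 3 Mb was higher than in the rest on 8 chromosomes and lower on 11, and the ratio ran over 0.155 to 1.96 with a median of 0.926. The limits of the ratio lay above 1 on 5 chromosomes and below 1 on 7. The end of chromosome 4 held 98 regions, 32.7 per Mb against 16.7 in its rest, a ratio of 1.96 (limits 1.58 to 2.40). The end of chromosome 11 held the most, 100, at 33.3 per Mb against 19.8 in its rest. Chromosomes 5, 10 and 15 followed with 95, 86 and 71 regions and ratios of 1.60, 1.55 and 1.34. Those 5 ends together held 450 of the 888 regions (50.7%). At the other extreme, the end of chromosome 18 held 7 regions, 2.33 per Mb against 15.1 in its rest, a ratio of 0.155 (limits 0.0622 to 0.320). Chromosome 17 held 16 (ratio 0.251), chromosome 3 held 13 (0.346) and chromosome 1 held 18 (0.489). On chromosomes 19, 12 and 14 the ratios were 0.518, 0.549 and 0.645. On the remaining 7 chromosomes (2, 6, 7, 8, 9, 13 and 16) the limits of the ratio included 1.

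**Figure D1:**
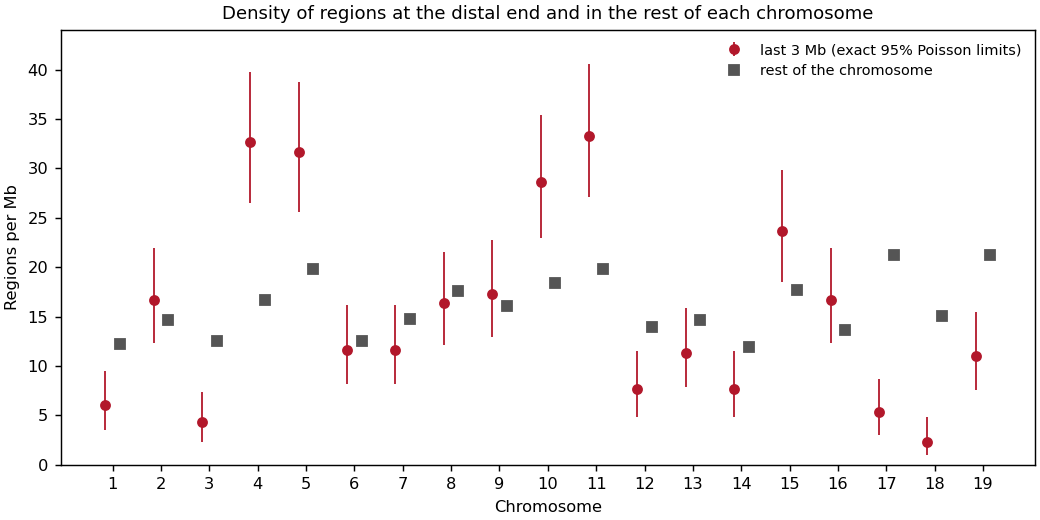
Listed regions per Mb in the last 3 Mb (circles, with 95% Poisson limits that cover counting error only) and in the rest of each of the 19 autosomes (squares). Points for the last 3 Mb spread over 2.33 to 33.3 regions per Mb. The squares are averages over much longer stretches, so the spread of circles and squares cannot be compared directly.

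Density changed with distance from the chromosome end at a finer scale than 3 Mb. Counted inward from the end in steps of 1 Mb over all 19 chromosomes, density was 11.2 regions per Mb in the first step (limits 9.76 to 12.8), 13.6 in the second and 21.9 in the third. It was 27.2, 30.9, 31.3, 34.9 and 36.1 in the next 5 steps, then 31.5 and 25.2 in the last 2 of the 10 Mb. The first step stood below the average of the rest of these chromosomes (15.7) and the eighth (limits 33.5 to 38.9) above it. From 10 to 20 Mb, steps added after the values were seen, density ran over 19.9 to 31.9. Protein-coding genes did not follow this course, with 12.6, 12.6 and 11.8 per Mb in the first 3 steps and 9.84 in the eighth. In the step next to the end, 4 of 19 chromosomes exceeded their own rest, and in the eighth step 15 did. The region nearest to the end of its chromosome lay from 100 kb (chromosome 16) to 636 kb (chromosome 14) inside it. No region lay in the last 100 kb of any chromosome, and whether that stretch is sequenced was not checked. With it left out of the window, the density ratio of the last 3 Mb over the rest was 1.03 (limits 0.961 to 1.10).

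Set against the 5 Mb next to them, the distal ends were sparse. This block was chosen after the steps had been seen. The last 3 Mb held 888 regions at 15.6 per Mb and the next 5 Mb held 3047 at 32.1, a ratio of 0.486 (limits 0.450 to 0.524). The ratio was under 1 on 17 of 19 chromosomes and its upper limit was under 1 on 16. Chromosome 2 had the opposite order, with 50 regions (16.7 per Mb) in its last 3 Mb and 44 (8.80 per Mb) in the next 5 Mb, a ratio of 1.89 (limits 1.24 to 2.91). Chromosome 10 was the other, at 1.10 (limits 0.830 to 1.46). Within the last 3 Mb the ends also differed in layout. Chromosome 4 held 34, 34 and 30 regions in its steps inward from the end and was dense throughout, while chromosome 10 held 10, 12 and 64, and chromosome 11 held 17, 47 and 36.

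**Figure D2:**
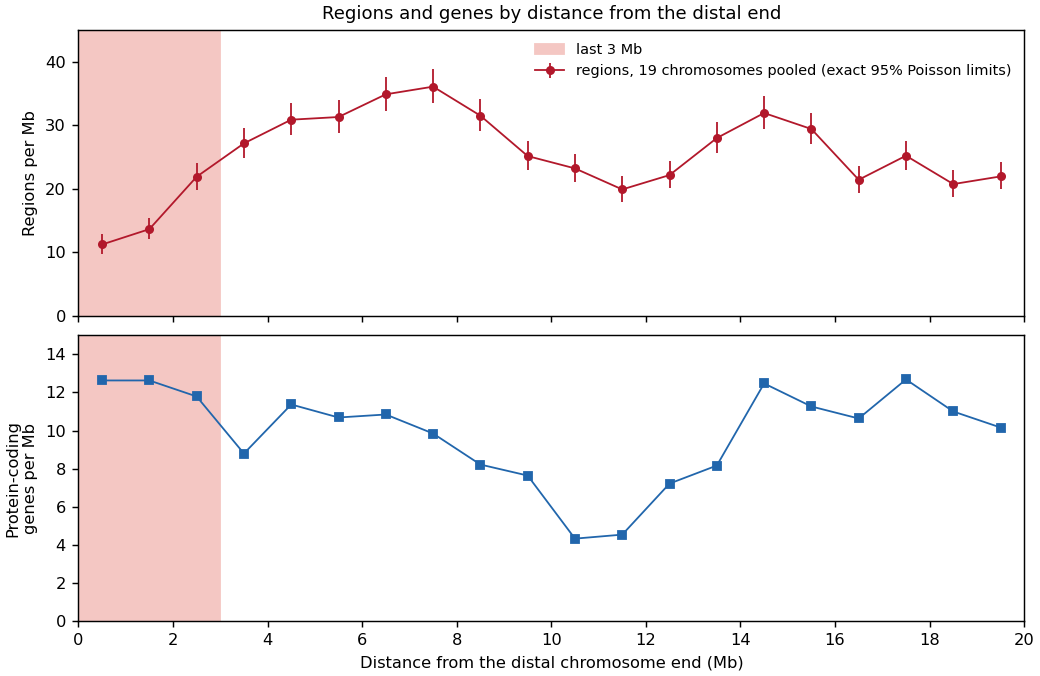
Regions per Mb (with 95% Poisson limits) and protein-coding genes per Mb by distance from the distal end, in 1 Mb steps pooled over the 19 autosomes. Region density was 11.2 per Mb next to the end and 36.1 between 7 and 8 Mb from it, while gene density was 12.6 and 9.84 in those steps.

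Relative to genes, the distal ends were poor in regions. The last 3 Mb held 12.4 protein-coding genes per Mb and the rest 8.30. That came to 1.26 regions per protein-coding gene in the last 3 Mb and 1.89 in the rest, a ratio of 0.668 (limits 0.624 to 0.714), and the ratio exceeded 1 on 5 of the 19 chromosomes (5, 8, 12, 16 and 17). Of the 9 ends with more genes per Mb than their own rest, 7 also had more regions per Mb. Among the 10 others only the end of chromosome 5 did, with 95 regions beside 21 genes.

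Each terminal window was also set beside 3 Mb windows elsewhere of like gene number. Terminal windows with 10 to 19 genes averaged 8.58 regions per Mb, against 13.8 in the 213 others of that class. With 40 to 79 genes they averaged 19.6, against 25.3 in the others, and with 80 or more genes 28.6, against 26.0. In 12 of 19 chromosomes the terminal window had fewer regions than the median of its class, in 6 it had more, and in 1 (chromosome 17) it equalled it. Chromosome 5 stood high, above 86.6% of windows of its class, and chromosomes 3 and 18 stood low, above 4.69% and 5.50%. No terminal window was the densest of its chromosome.

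**Figure D3:**
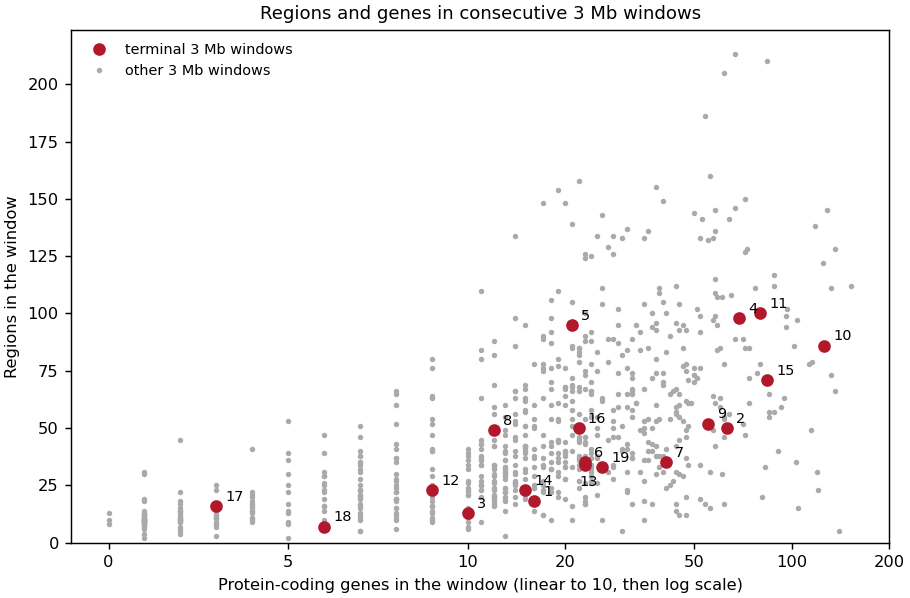
Regions against protein-coding genes in each 3 Mb window of the 19 autosomes, terminal windows marked by chromosome number. Terminal windows have a median of 35 regions (quartiles 23 and 61.5) and the 774 others a median of 38 (quartiles 22 and 66).

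Among listed regions, the size of the loss was alike near the ends and elsewhere. The median distal region had 13 tamoxifen tags and 48 oil tags, and the median region of the rest had 14 tamoxifen tags and 51 oil tags. The authors' fold, oil over tamoxifen, had a median of 4.66 in the last 3 Mb (quartiles 3.64 and 6.15) and 4.61 in the rest (3.67 and 5.86). Put the other way, the median distal region kept 19.6% of its oil tags in the tamoxifen library after scaling, and the median region of the rest kept 20.1%. Folds of 10 or more were found in 18 distal regions (2.03%) and 765 regions of the rest (2.03%), with 2.03% over both. Under 2 lay 8 distal regions and 237 of the rest. The lowest fold near an end was 1.62 and the highest 13.87, and distal regions had a median length of 255 bp, against 259 bp in the rest. The fold is the caller's value at each summit and each region had to pass its q cutoff, so these folds run high by selection. The same cutoff held in both parts, and DNA that did not pass it is not compared here.

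Ends differed in fold less than in number. The median fold was highest at the end of chromosome 1 (5.57 over 18 regions), followed by chromosome 8 (5.28 over 49) and chromosome 16 (5.02 over 50). It was lowest on chromosome 18, where the 7 regions had folds of 2.95 to 4.17 with a median of 3.42 and kept 22.6 to 32.7% of their oil tags. Chromosome 3 had a median of 3.94 and chromosome 17 of 3.999. Regions 0 to 1 Mb from the end had a median fold of 4.35, against 5.06 between 1 and 2 Mb and 4.70 between 2 and 3 Mb. Near the inner line of the windows, 17 regions up to 50 kb inside had a median fold of 4.66 (15 tamoxifen tags and 57 oil tags), and 12 up to 50 kb outside had 3.78 (15 and 47.5).

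**Figure D4:**
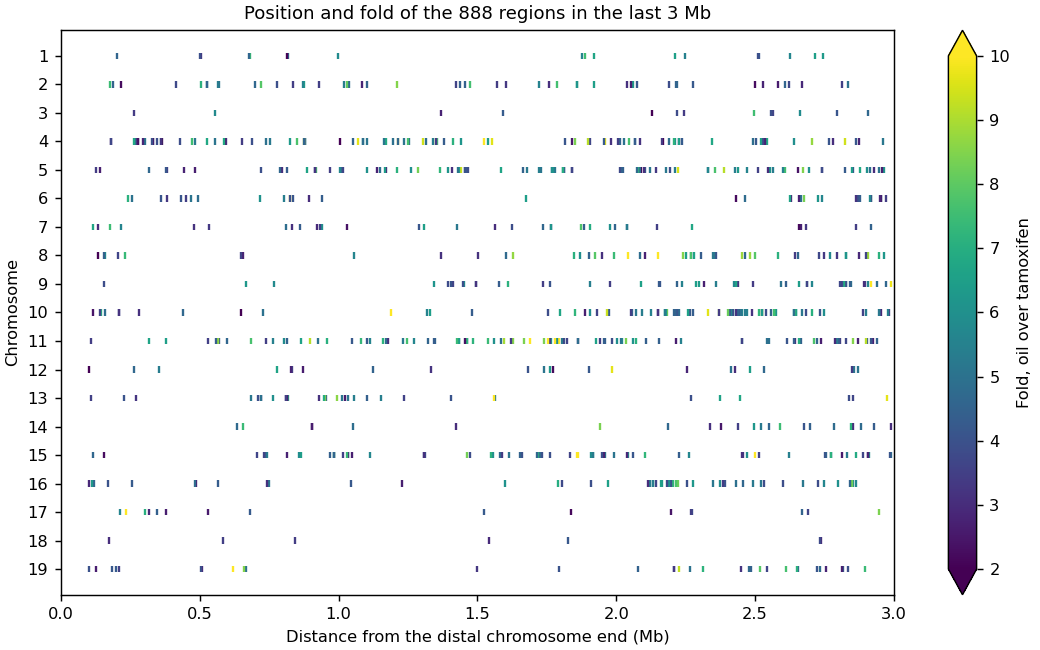
Each of the 888 regions by its distance from the end of its chromosome, with its fold, oil over tamoxifen as deposited, shown by colour. The rows of chromosomes 4, 5, 10 and 11 are crowded and those of 3, 17 and 18 are sparse. The quartiles of all 888 folds are 3.64 and 6.15.

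Single regions with few tamoxifen tags set the highest folds. A region inside Pard3, which encodes a scaffold of cell polarity (chr8:127251875-127252460), had 2 or fewer tamoxifen tags and 42 oil tags, a fold of 13.87. The same tags and fold were found at chr11:120329732-120330041, outside any gene by 2000 bp. Dennd10 on chromosome 19, a gene of the DENN domain family, had 2 or fewer tamoxifen tags and 41 oil tags (fold 13.55). Where tamoxifen tags were 2 or fewer, the caller's background stood in for them, so these folds are set by that background. Sec22c, a gene of vesicle traffic on chromosome 9, had 4 tamoxifen tags and 52 oil tags (fold 13.08), with limits of 6.27 to 64.9 on the scaled tag ratio. Inside Prkcz the region chr4:155292365-155292761 had 9 tamoxifen tags and 97 oil tags (fold 12.46, limits 7.14 to 31.8), the best counted of the 10 highest. The rest of those 10 were a region in no gene on chromosome 17 (3 tamoxifen tags, 43 oil tags) and regions at Krt82, Nploc4, Plch2 and Cdk11b with 3 or fewer tamoxifen tags and 36 to 40 oil tags.

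Protein-coding genes carried a region less often near the ends. A region over the gene or 2000 bp beside it was found at 285 of 704 genes in the last 3 Mb (40.5%, limits 36.8 to 44.2) and at 9455 of 19961 in the rest (47.4%, limits 46.7 to 48.1), with 47.1% over both. Among lncRNA genes the counts were 83 of 355 (23.4%, limits 19.1 to 28.1) and 3221 of 12053 (26.7%, limits 25.9 to 27.5), with 26.6% over both. Distal genes were shorter, with a median length of 12.96 kb against 17.7 kb in the rest. Among genes under 10 kb, 20.5% carried a region in the last 3 Mb and 19.7% in the rest. Between 10 and 50 kb the shares were 48.6% and 52.2%, and between 50 and 100 kb 61.9% (limits 48.8 to 73.9) and 74.7% (limits 72.9 to 76.5). Over 100 kb they were 89.6% and 87.4%. In each of these 4 classes the limits of the 2 shares overlapped. Receptor genes of smell carried few regions: 58 olfactory receptor genes sit near the end of chromosome 10, of which 1 carried a region (1.72%), against 43 of 1046 in the rest (4.11%). Without olfactory and vomeronasal receptor genes the shares were 44.1% (limits 40.2 to 48.0) in the last 3 Mb and 50.6% (limits 49.9 to 51.4) in the rest.

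By the place of the region's midpoint among protein-coding and lncRNA genes, 487 distal regions (54.8%) lay inside a gene more than 2000 bp from its ends, as did 54.8% in the rest. Within 2000 bp of a gene's end lay 167 (18.8%, limits 16.3 to 21.5), against 14.7% (limits 14.4 to 15.1) in the rest. Outside genes lay 234 (26.4%, limits 23.5 to 29.4), against 30.5% (limits 29.997 to 30.9). The share near gene ends was thus higher among distal regions, and its limits, which cover counting error only, did not overlap those of the rest. The distal windows also held more genes per Mb. The share of sequence within 2000 bp of a gene's end was not measured in either part. Whether regions favour gene ends more in the distal windows than in the rest was therefore not tested. In all, 589 of the 888 were at protein-coding genes, 70 at lncRNA genes only and 229 at neither. They touched 287 protein-coding genes, of which 2 reach in from outside the windows. A single region was carried by 149 of these genes, and 5 or more by 24.

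Pard3 carried the most, with 16 regions over its long body (2.91 per 100 kb). Their folds were 2.73 to 13.87, with a median of 6.53, above the distal median of 4.66. Prdm16, whose product directs brown fat fate, carried 15 on chromosome 4, with folds of 1.97 to 9.73 and a median of 4.33. Its best region had 3 tamoxifen tags and 31 oil tags. Fry carried 13 and Brwd1, a bromodomain gene on chromosome 16, carried 10 in a shorter body (11.04 per 100 kb). Cdh4, which encodes R-cadherin, carried 9 with folds of only 2.25 to 4.69. Tbc1d16, a Rab GTPase regulator, and the neighbours B3glct, a glycosyltransferase gene, and Rxfp2, a relaxin family receptor gene, carried 8 each. Prkcz carried 7, all with folds of 4.64 or more. Ski, which encodes a repressor of TGF-beta signalling known to enlarge muscle when overexpressed, carried 6 with a median fold of 6.13. Another 7 genes had 6 regions, namely Tmem267, Timeless, Erg, Ccdc57, Rbms2, Stat2 and Rnf213. Per length the highest of the 17 were Timeless, a replication fork gene, at 28.7 per 100 kb, and Stat2, of interferon signalling, at 26.8, both on chromosome 10. These rates divide by the length of the gene alone, while regions up to 2000 bp beside it are counted, so they run high for short genes.

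**Figure D5:**
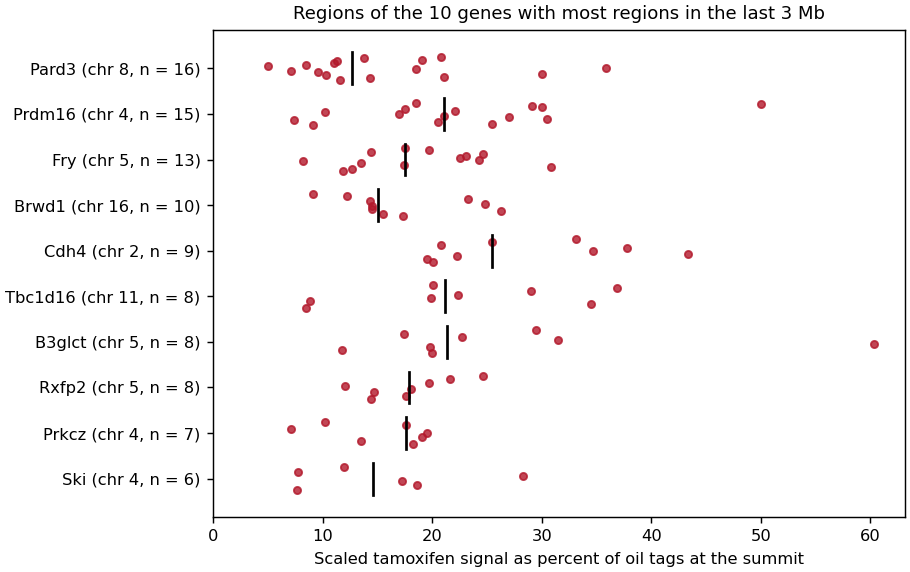
Percent of oil tags kept in the tamoxifen library after scaling, for every region of the 10 genes with most distal regions. The bars are medians, which run over 12.7% (Pard3) to 25.4% (Cdh4), and points of regions with 2 or fewer tamoxifen tags are upper bounds.

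The dense ends are described by their leading genes. On chromosome 4 the regions were spread over Prdm16, Ski, Prkcz, Plch2, Cdk11b and others, and 33 of 69 genes carried one (47.8%, against 48.7% in the rest of that chromosome). On chromosome 11, 41 of 80 did (51.2%, against 47.9% in its rest), among them Nploc4, a cofactor of the p97 segregase, whose region had 2 or fewer tamoxifen tags and 37 oil tags. Of the regions at protein-coding genes, the nearest to the end of that chromosome lay in Metrnl, which encodes a secreted factor made by muscle and fat, with 9 tamoxifen tags and 50 oil tags. On chromosome 5, 15 of 21 genes did (71.4%, against 55.3% in its rest), with 13, 8 and 8 regions at Fry, Rxfp2 and B3glct. On chromosome 10 the regions sat beside 33 of 126 genes (26.2%, against 57.8% in its rest). The longest stretch free of regions at this end (chr10:129507226-129968589) held 25 protein-coding genes. Leaving out receptor genes, 31 of 64 genes at the end of chromosome 10 carried a region (48.4%), against 504 of 861 in the rest of that chromosome (58.5%). On chromosome 15, with its keratin and Hoxc genes, 35 of 84 did (41.7%, against 59.1% in its rest).

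The 7 ends whose limits lay below 1 had fewer genes per Mb than their own rest, and stretches free of regions. Chromosome 19 had the most genes of them, 26, of which 13 carried a region. Its longest stretch free of regions (0.834 Mb) held 4 protein-coding genes. On chromosome 18 a stretch of 0.907 Mb with no protein-coding gene wholly inside it held no region. At that end 2 of 6 genes carried one: Socs6, a suppressor of cytokine signalling (16 tamoxifen tags, 54 oil tags), and Tmx3, a disulfide isomerase gene (76 and 179). On chromosome 17 none of the 16 regions was at any of its 3 protein-coding genes, yet one of them had 3 tamoxifen tags and 43 oil tags. On chromosome 1 the empty stretch was 0.881 Mb, and the highest fold at a protein-coding gene was in the semaphorin receptor gene Plxna2 (4 tamoxifen tags, 29 oil tags, fold 7.41), below the 7.53 of a region in no gene. Zranb2, a splicing gene, led chromosome 3. On chromosome 12 the leading gene was the axonemal dynein gene Dnah11, with 2 or fewer tamoxifen tags and 29 oil tags, and on chromosome 14 it was Tmtc4, with 4 and 33. Gene-rich stretches could be empty as well: on chromosome 9 a stretch of 0.578 Mb (chr9:123251314-123829342) held 9 protein-coding genes and no region.

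At the other ends, of the regions at protein-coding genes, that of highest fold lay in Ythdf1 on chromosome 2, a reader of methylated RNA (5 tamoxifen tags, 40 oil tags), in Mrps35 on chromosome 6 (7 and 52), in Cars on chromosome 7 (15 and 96) and in Paip1 on chromosome 13 (20 and 139). Regions in no gene had higher folds on chromosomes 6 (9.73) and 13 (10.97). On chromosome 16 it was at Erg, an ETS factor gene (6 and 45). The regions at protein-coding genes that lay closest to the end had folds of 1.96 to 9.68 on the 18 chromosomes that had one. On chromosome 8 the gene was Gm32856, with 132 tamoxifen tags and 198 oil tags (fold 1.96). The fold was 3.70 at Vmn2r129 on chromosome 4, 2.77 at Stard13 on chromosome 5, 3.16 at Vmn2r87 on chromosome 10 and 3.53 at Csf2ra on chromosome 19. Bicd1 on chromosome 6 had 7.11, with 14 tamoxifen tags and 82 oil tags.

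The imprinted domain near the end of chromosome 7 was touched at 6 of its 18 listed genes. Of all protein-coding genes, 40.5% carried a region in the last 3 Mb and 47.1% over all autosomes. With so few listed genes, no difference from these shares was tested. Both the 18 and the 6 include H19 and Kcnq1ot1, which encode no protein, so these shares are not of like genes. H19, which was not among the promoter windows used, had a region close beyond one end of the gene (chr7:142578243-142578620) with 20 tamoxifen tags and 55 oil tags, a fold of 3.45. Kcnq1ot1, the long RNA that silences its neighbours on the paternal chromosome, had one 1201 bp from its start site, with 34 tamoxifen tags and 93 oil tags (fold 3.49), inside Kcnq1. Both folds lay below the distal median. Kcnq1, a potassium channel gene, had 4 regions, the best with 15 tamoxifen tags and 83 oil tags (fold 6.75). Nap1l4 had 4 tamoxifen tags and 27 oil tags, Tnfrsf23 had 18 and 90, and Osbpl5 had 8 and 32. No region was listed at Igf2, Ins2, Th, Ascl2, Tspan32, Cd81, Tssc4, Cdkn1c, Slc22a18, Phlda2, Tnfrsf22 or Dhcr7. A stretch of 0.386 Mb (chr7:142781637-143167588) with 6 protein-coding genes was free of regions, while at the cell cycle inhibitor gene Cdkn1c the nearest lay 2.58 kb away. The library does not tell the 2 parental alleles apart.

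In the Hoxc cluster 4 of 9 genes carried a region, a share near that of all protein-coding genes (40.5% in the last 3 Mb, 47.1% over all autosomes). Hoxc6 had 4, of which one, shared with Hoxc5, had 6 tamoxifen tags and 40 oil tags (fold 7.35). Hoxc8 had 34 tamoxifen tags and 71 oil tags (fold 2.67) and Hoxc4 had 14 and 40 (fold 3.51). None was listed at Hoxc9 to Hoxc13, and the carrying genes are neighbours. Of 24 keratin genes on the same end 9 carried a region, against 9 of 25 keratin genes elsewhere. Krt82 had the strongest (3 tamoxifen tags, 40 oil tags), Krt79 had 5 and 34, and Krt8, which is active in simple epithelia, had 2 regions, the better with 7 and 36.

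The other lists were small, and no difference between a list and the 47.1% of all protein-coding genes with a region was tested. Of 10 growth regulators, all of which lie in the last 3 Mb, 7 carried a region. Besides Ski these were Brca2, of DNA repair (28 tamoxifen tags, 185 oil tags, fold 8.32), Sirt7, a deacetylase gene with 2 regions (the best with 22 and 127, fold 7.20), Fasn, of fatty acid synthesis (4 and 22), Foxk2 (7 and 36), Grk5 (11 and 36) and the Wnt pathway gene Dvl1 (14 and 39). None was listed at Trp73, Cdkn1c or Ccnd1. The contractile and cytoskeletal list had 0 of 4 genes with a region (Tnni2, Tnnt3, Lsp1 and Actg1), against 5 of 5 elsewhere, which include long genes such as Ttn. Chemokine receptors had 0 of 8, against 1 of 1 elsewhere. Of 5 Fgf ligand genes only the long Fgf14 did, with 4 regions (the best with 4 and 29, fold 7.41), against 8 of 15 elsewhere. On the fibro-adipogenic list, 1 of 2 genes carried a region (Prdm16 but not Cd34), against 2 of 3 elsewhere. Neither gene is read here as the mark of a single cell type. Endothelial markers had 0 of 1 (Sox18), against 3 of 4 elsewhere, and immune markers 0 of 3 (Cr2, Cxcr6 and Cd7), against 2 of 2 elsewhere. A region says nothing of which cells in the culture carried the loss, and fewer such cells and a partial loss in all cells cannot be told apart in these bulk libraries.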

How the data were processed

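The analysis used 1 deposited list of regions from 2 of the series' 4 libraries, with 1 library per group. The submitters' processing notes name Trim Galore, HISAT2, MACS2 and mm10. The authors ran MACS 2.2.6 with the oil alignment as treatment and the tamoxifen alignment as control, per the file headers, with tags of 130 bp extended to 201 bp, a q cutoff of 1e-04 and no regional background. Of 36519772 tamoxifen tags 25614791 were kept (redundant rate 0.30), and of 35216008 oil tags 19534328 (0.45). The deposited pileup is a signal value, the oil tags over the summit. The deposited fold enrichment is a ratio, oil over tamoxifen, each with 1 added. The deposited −log10 q values compare 2 libraries, and their headings had been lost, so they were read from their place in MACS output.

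Tamoxifen tags were computed from pileup and fold, and came out whole within 0.02 tags in 38251 regions (97.5%). In the 980 others, 35 of them distal, the caller's genome mean of 2.10 scaled tags stood in for 2 or fewer tags. Percent kept is the scaled tamoxifen value over the oil tags. Members were set by midpoint on mm10 chromosome lengths entered by hand, beyond which no region or RefSeq gene extended. Genes, promoters and hairpins came from RefSeq on GRCm38.p6. A gene carried a region that overlapped it or 2000 bp beside it.

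Limits at 95% are exact Poisson for densities, exact conditional binomial for ratios and Clopper-Pearson for shares. Overlapping tags and neighbouring regions are not independent, and the limits cover counting error only. Named genes were, among regions at protein-coding genes of each chromosome, the gene of the highest fold and that of the region nearest to the end, the 10 genes with most regions, the genes of the 10 highest folds, and all genes of the lists in the last 3 Mb. Genes outside this rule were named after their values were seen. The members and lists were chosen with earlier results of these data known. Alternatives were windows of 1, 2 and 5 Mb, a q limit of 1e-10, regions under 1 kb apart joined, other gene sets and each chromosome left out. The counting was tested on simulated data. Python 3.11.15, numpy 2.4.6, pandas 2.3.3 and scipy 1.17.1 were used.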

Additional observations from a re-analysis of the deposited data

How the results depend on the processing

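The density ratio of the last 3 Mb over the rest (0.994) depended on the window: it was 0.714 for 1 Mb, 0.790 for 2 Mb and 1.36 for 5 Mb. The median over chromosomes was 0.926, and leaving out each chromosome in turn gave 0.938 (without chromosome 4) to 1.05 (without chromosome 17). The number of chromosomes with the denser end was 8, against 4 at 1 Mb and 5 at 2 Mb. The ratio of gene shares (0.855) was 0.607, 0.711 and 0.964 with windows of 1, 2 and 5 Mb, and that of regions per gene (0.668) was 0.472, 0.521 and 0.980. The median fold (4.66) was 5.09 as a plain ratio of tags, 4.35 for the last 1 Mb and 5.06 past a q limit of 1e-10. The ratio to the next 5 Mb (0.486), a comparison added after seeing the data, was 0.405 per gene and 0.458 to 0.504 with a chromosome left out. For the changes with window size the cause was not tested. The other alternatives left the ratios and the median fold within their counting limits, and the chromosome count was 12 at 5 Mb and 9 past the stricter q limit. No paired analysis was possible because each group has 1 library. Depth limits single regions: 35 of the 888 have 2 or fewer tamoxifen tags, so their folds are set by the caller's background, and DNA below the caller's cutoff cannot be told apart from DNA without loss.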
